A study of Mus musculus with 10 samples.

Results

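The WAVE regulatory complex genes were followed in mouse bone marrow-derived macrophages as the 10 genes Wasf1, Wasf2, Abi1, Abi2, Abi3, Cyfip1, Cyfip2, Nckap1, Nckap1l and Brk1. They were taken by symbol from the 57010 gene identifiers of the deposited table, where each symbol occurs once. Membership follows the symbols alone, although the list was drawn up with earlier results of these data known. Of the 10, 9 reached the minimum for testing, which was an average of 10 normalized reads across all libraries. Wasf1 was under this minimum and was not tested.

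Macrophages were grown from bone marrow for 7 days in 20 ng/mL of the growth factor M-CSF, and RNA sequencing libraries were made from 5 ng of RNA. The marrow came from wild-type (WT) mice or from mice without WASp (WKO), the protein encoded by Was, whose allele the labels do not describe further. Confined cells spent 1 h under a ceiling 3 µm high and unconfined cells served as controls, giving 2 WT unconfined, 2 WKO unconfined, 3 WT confined and 3 WKO confined libraries. Whether the libraries of a group came from separate mice or cultures is not stated in the labels, so the p-values measure the spread between these libraries, which may be technical. Libraries are called by the replicate number in their titles.

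The libraries held 13295701 to 19329908 reads, and the detection floor was set at 3 reads, equal to 2.35 to 3.59 normalized reads. This floor covers counting error only. The targeted gene Was stood at 1308 to 1649 in the 5 WT libraries and at 96.9 to 154 in the 5 WKO libraries. The macrophage markers Adgre1 (19572 to 25809) and Csf1r (21303 to 37839) were high in every library, and none of the 8 macrophage markers was at 0. The 8 summed to 206120 to 208283 in WT unconfined and 241895 to 250579 in WKO unconfined libraries. In confined libraries the sums were 179561 to 208102 (WT) and 252962 to 314561 (WKO). Lyz2 alone held 100507 to 200203. Summed neutrophil and progenitor markers (10 genes) were 6891 to 10837 in WT unconfined, 24792 to 29830 in WKO unconfined, 2545 to 7933 in WT confined and 6971 to 27924 in WKO confined libraries. Summed stromal markers (12 genes), for the groups in that order of listing, were 867 to 1864, 2337 to 2691, 187 to 766 and 834 to 10373, the last value being WKO confined replicate 5. In libraries of bulk RNA, fewer cells of a type and less RNA per cell cannot be told apart.

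The WAVE regulatory complex is a stable assembly that holds 1 protein from each of the WAVE, ABI, CYFIP, NCKAP and BRK1 families. In the resting complex the C-terminal region of WAVE, which activates the Arp2/3 complex, is kept hidden. Binding of active Rac to the CYFIP subunit releases it, and the branched actin that follows pushes out lamellipodia and membrane ruffles, structures that macrophages use to migrate and to take up particles. WASp activates the same Arp2/3 complex but answers to Cdc42 and acts in podosomes and phagocytic cups.

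Most positions of the complex can be filled by more than 1 gene, so the measurements depend on telling the paralogues apart. The coding sequences of Cyfip1 and Cyfip2, both 1253 codons long, were identical at 77.7% of aligned bases, and their longest identical run was 24 bases. Abi1 (481 codons) and Abi2 (487 codons) were identical at 70.8%, with a longest run of 23 bases, and Wasf1 and Wasf2 at 66.3%, with a run of 17 bases. Nckap1 and Nckap1l, both 1134 codons long, were identical at 63.1%. Abi3, with 367 codons the shortest ABI gene, matched Abi1 at 65.2% and Abi2 at 63.6%. The stretches below show the most alike part of 3 pairs, read from GENCODE M21 transcripts of GRCm38 and written 5′ to 3′, with the longest shared run in capitals and 12 bases on each side in lower case.
Cyfip1: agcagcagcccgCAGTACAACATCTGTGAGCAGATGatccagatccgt
Cyfip2: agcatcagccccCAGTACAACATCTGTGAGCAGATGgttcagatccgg
Abi1: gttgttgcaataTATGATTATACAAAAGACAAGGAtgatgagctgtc
Abi2: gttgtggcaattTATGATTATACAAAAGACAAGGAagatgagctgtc
Wasf1: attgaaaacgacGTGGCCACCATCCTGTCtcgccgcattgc
Wasf2: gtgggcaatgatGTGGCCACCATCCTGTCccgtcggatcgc
In each pair both flanks differ, so a read covering the run and its flanks carries bases that separate the genes. No member shared 20% or more of its transcript with a gene elsewhere in the genome at 95% identity or above.

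Levels were compared between genes per kilobase (kb) of exon, as the mean normalized read count per kb over the 10 libraries. The order from the top was Nckap1l at 2523, Brk1 at 1378, Abi1 at 907, Wasf2 at 821, Cyfip1 at 687, Cyfip2 at 364, Abi3 at 73.4, Abi2 at 68.6, Nckap1 at 47.1 and Wasf1 at 0.719. Most neighbours in this order were separated in all 10 libraries. Abi1 exceeded Wasf2 in 8 of the 10, Abi2 exceeded Nckap1 in 9, and Abi3 exceeded Abi2 in only 4, so the order of that last pair did not hold beyond their spread. The order also depends on which exons are counted: over the longest transcript of each gene Cyfip1, at 1275 per kb, took rank 3, ahead of Abi1 and Wasf2, and Abi2 came ahead of Abi3.

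**Figure D1:**
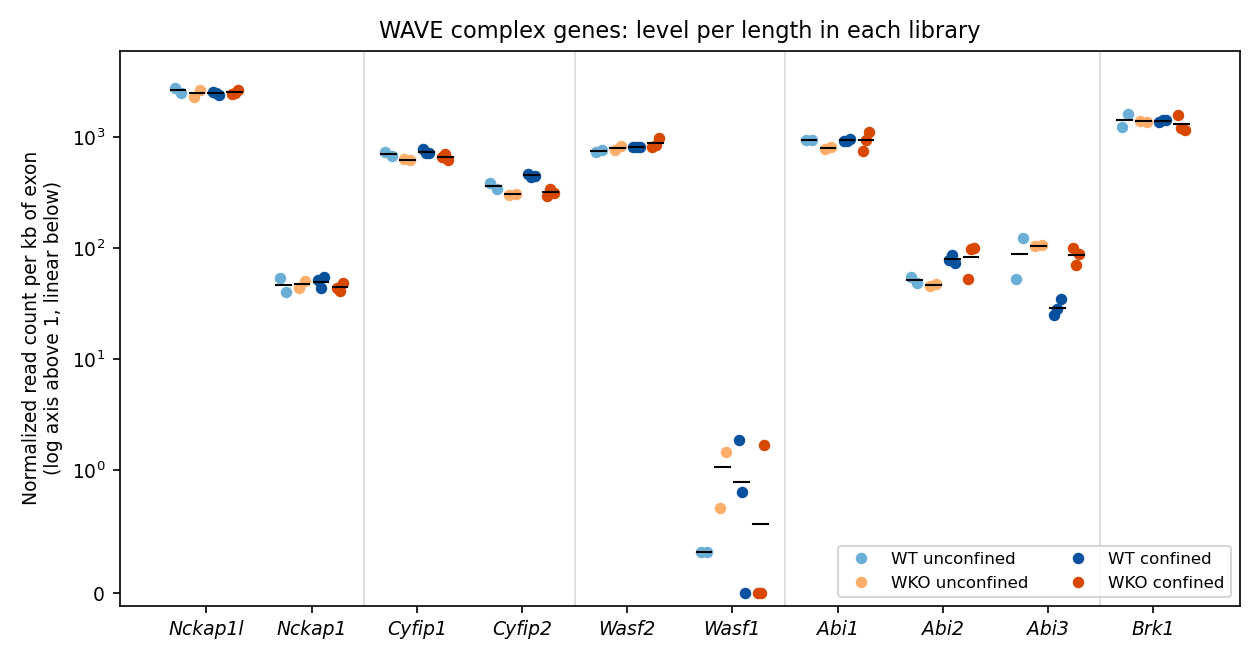
Level of each WAVE complex gene per kb of exon (normalized read count per kb, log axis above 1) in each of the 10 libraries, 1 point per library, coloured by group. Nckap1l sits highest with a mean of 2523 and Wasf1 lowest with a mean of 0.719, and the spread between groups is widest for Abi3.

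At the level of transcripts, each position was thus dominated by 1 gene or shared by a pair. These are shares of RNA, and neither protein nor the assembled complex was measured. Nckap1l supplied 97.8% to 98.4% of the summed NCKAP level per kb in every library and Wasf2 99.8% to 100% of the summed WAVE level. Abi1 supplied 83.1% to 89.9% of the ABI level. The CYFIP level was more evenly shared, with Cyfip1 at 61.6% to 69.2% and Cyfip2 at 30.8% to 38.4%. Summed over its genes, the NCKAP position stood at 2570 per kb, BRK1 at 1378, CYFIP at 1052, ABI at 1049 and WAVE at 822. Over the longest transcripts the order differed, with CYFIP at 1663 above BRK1 at 1378, ABI at 1253 and WAVE at 911, and NCKAP still highest at 3051.

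Which members differed between groups was asked with limma on log2(normalized read count + 1), fitted to all tested genes and libraries, with adjusted p-values over all 12455 tested genes. Members are counted as called at an adjusted p under 0.05. Between genotypes, Abi3 rose and Cyfip2 fell in WKO against WT confined cells, and Abi3 fell on confinement of WT cells. Abi2 rose on confinement when both genotypes were averaged. The other 6 tested members passed in none of the comparisons in this fit.

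In WKO against WT confined cells, 2 of 9 tested members were called, beside 2.59% of all tested genes, and the libraries of the groups did not overlap for 3 members, beside 21.1% of all tested genes. In unconfined cells the limma test called 0 of 9, beside 0.145% of all tested genes. There 0 members reached an unadjusted p under 0.05, which 9.6% of all tested genes did. The edgeR and DESeq2 tests also called 0 members, beside 0.12% and 1.47% of all tested genes. The 2 libraries of each unconfined genotype did not overlap for 5 members, beside 44.9% of all tested genes. The median log2 fold change of the 9 members was -0.02 in confined cells and -0.09 in unconfined cells, where the medians of all tested genes were 0.0036 and 0.0022. Averaged over both conditions, 2 members were called, Abi3 and Cyfip2, beside 5.57% of all tested genes.

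On confinement of WT cells 1 of 9 members was called, beside 1.16% of all tested genes, and 4 members did not overlap, beside 35.9%. On confinement of WKO cells limma called 0, beside 1.72% of all tested genes, with 1 member at an unadjusted p under 0.05, beside 14.1%. For the same comparison edgeR called 0 members, and DESeq2 called 1, Abi2, beside 3.89% of all tested genes called by DESeq2. The libraries did not overlap for 2 members, beside 28.3% of all tested genes. The WT and WKO unconfined libraries serve both genotype and confinement comparisons, so these counts share libraries. Averaged over genotypes, confinement gave 2 called members, Abi2 and Abi3, beside 6.21% of all tested genes. The interaction, the response to confinement of WKO cells less that of WT cells, called 0 members with limma, edgeR and DESeq2 and 0% of all tested genes with limma. At an unadjusted p under 0.05 it held 1 member, Abi3, beside 2.07% of all tested genes.

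**Figure D2:**
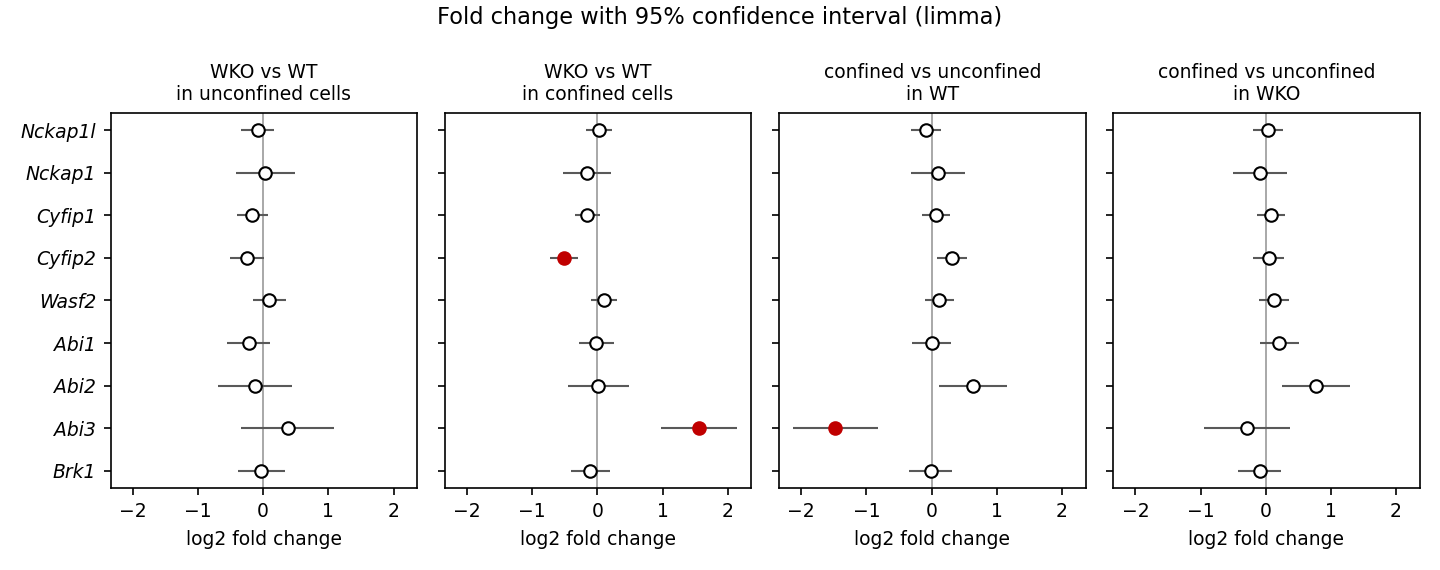
Log2 fold change with 95% confidence interval (limma) of the 9 tested members in the 4 comparisons between pairs of groups, with filled red points for an adjusted p under 0.05. Cyfip2 and Abi3 are filled in confined cells (-0.51 and 1.57) and Abi3 again for confinement of WT cells (-1.47), while most other intervals cross 0.

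WAVE proteins carry the region that activates Arp2/3, and in these macrophages almost all WAVE transcript came from Wasf2 (chr4:133130505-133199756 in GRCm38, plus strand). Its normalized read counts were 4622 and 4791 in WT unconfined, 4826 and 5233 in WKO unconfined, 5092, 5125 and 5137 in WT confined and 5100.4, 5344 and 6096 in WKO confined libraries. The groups lay close together, with every WT confined library above both WT unconfined ones and WKO confined replicate 5 highest. The log2 fold change averaged over conditions was 0.10 for WKO against WT (95% confidence interval -0.06 to 0.26, limma adjusted p = 0.503) and 0.13 for confinement averaged over genotypes (-0.04 to 0.29, limma adjusted p = 0.356).

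Wasf1 (chr10:40883475-40938570, plus strand), the WAVE gene best known from brain, had 0 to 5 reads per library. Its normalized read counts were 0.950 and 0.960 in WT unconfined, 1.97 and 4.13 in WKO unconfined, 5.36, 2.35 and 0 in WT confined and 0, 0 and 4.79 in WKO confined libraries. These values lie at or near the floor of 3 reads, so no difference was detectable at this depth. Wasf3, the remaining WAVE gene and not in the list of 10, had 0 reads in all 10 libraries, which allows up to 3 reads each.

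ABI proteins bridge WAVE to the rest of the complex and bind Abl kinases. Abi1 (chr2:22940073-23040241, minus strand), the main ABI gene here, had normalized read counts of 3769 and 3758 in WT unconfined, 3177 and 3264 in WKO unconfined, 3719.5, 3729 and 3862 in WT confined and 3032, 3819 and 4449 in WKO confined libraries. The unconfined genotypes did not overlap, whereas the WKO confined libraries spanned the whole range. Abi1 was not called, with a log2 fold change averaged over conditions of -0.12 for WKO against WT (-0.34 to 0.09, limma adjusted p = 0.538) and 0.11 for confinement (-0.11 to 0.32, limma adjusted p = 0.575). Within WKO its log2 fold change on confinement was 0.21 (-0.09 to 0.51, limma adjusted p = 0.543). Without WKO confined replicate 1, the lowest library, it was 0.36 and called (limma adjusted p = 0.0471), and over all alternatives the adjusted p ran from 0.0471 to 0.990.

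Abi2 (chr1:60409619-60481158, plus strand) had normalized read counts of 465 and 409.8 in WT unconfined, 392 and 409 in WKO unconfined, 667, 747 and 626 in WT confined and 446, 835 and 860.3 in WKO confined libraries. All WT confined libraries stood above all unconfined ones, as did WKO confined replicates 2 and 5. WKO confined replicate 1 lay among the unconfined values, above both WKO unconfined libraries and below WT unconfined replicate 1. Group means were 438 ± 39.4 (SD, n = 2) in WT unconfined, 400.2 ± 12.1 (n = 2) in WKO unconfined, 680.2 ± 61.7 (n = 3) in WT confined and 714 ± 232 (n = 3) in WKO confined cells.

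Averaged over genotypes, Abi2 rose 1.63-fold on confinement, a log2 fold change of 0.70 (SE 0.169, 95% confidence interval 0.33 to 1.07, limma adjusted p = 0.0328). Within WT the log2 fold change was 0.63 (0.11 to 1.16, limma adjusted p = 0.298) and within WKO it was 0.77 (0.25 to 1.30, limma adjusted p = 0.162), so neither passed alone. The averaged call held without WKO confined replicate 1 or replicate 5 but was lost when any of the other 8 libraries was left out (WT unconfined 1 or 3, WKO unconfined 1 or 3, WT confined 2, 3 or 6, WKO confined 2), with limma adjusted p-values up to 0.122 and a log2 fold change between 0.62 and 0.86. Leaving out WKO confined replicate 1 gave a log2 fold change of 1.08 within WKO (limma adjusted p = 0.00194) and of 0.63 within WT (limma adjusted p = 0.0217), both then called. With only the WT groups in the fit Abi2 was also called on confinement of WT cells (limma adjusted p = 0.0345). Over all alternatives tried the adjusted p ran from 0.00109 to 0.611 within WKO, from 0.0217 to 0.686 within WT and from 0.00027 to 0.282 for the average. Between genotypes the averaged log2 fold change was -0.06 (-0.43 to 0.31, limma adjusted p = 0.906).

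Abi3 (chr11:95830074-95842476, minus strand), an ABI gene known from blood and brain immune cells, varied most among the tested members. Its normalized read counts were 219 and 512 in WT unconfined, 431 and 441 in WKO unconfined, 104, 116 and 143 in WT confined and 418, 295 and 369 in WKO confined libraries. All 3 WT confined libraries were below each of the other 7, and the 2 WT unconfined libraries stood far apart. Group means were 365 ± 207 (SD, n = 2), 436 ± 6.85 (n = 2), 121 ± 20.0 (n = 3) and 361 ± 62.1 (n = 3) in the same order of groups.

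In confined cells Abi3 was 2.96-fold higher in WKO than in WT, a log2 fold change of 1.57 (SE 0.268 and 95% confidence interval 0.98 to 2.15, limma adjusted p = 0.0130). The call was lost without WT confined replicate 2 (limma adjusted p = 0.0635) or replicate 3 (0.0606), and over all alternatives the adjusted p ran from 3.84e-06 to 0.0659 with the log2 fold change at 1.45 or more when a library was left out. In unconfined cells the log2 fold change was 0.38 (-0.34 to 1.09, limma adjusted p = 0.795) and it turned to -0.23 without WT unconfined replicate 1. Summed macrophage, neutrophil and stromal markers were also higher in WKO confined than in WT confined libraries as a group, as given above. So were the sums of dendritic cell, endothelial, B-lineage and erythroid and megakaryocyte markers, while those of T and NK markers overlapped near 0. The part of these markers in the Abi3 result was not tested. Without WKO confined replicate 5 the log2 fold change of Abi3 in confined cells was 1.54 (limma adjusted p = 0.0138). That replicate had the highest stromal sum but the lowest neutrophil sum (6971) of its group. The stromal sums of the other WKO confined libraries, 3419 and 834, were still above those of all WT confined ones. Leaving it out therefore does not test the part of the markers.

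Confinement of WT cells lowered Abi3 to 0.36 of its unconfined level, a log2 fold change of -1.47 (SE 0.299, 95% confidence interval -2.13 to -0.82, limma adjusted p = 0.0386). This call rests on few libraries. It was lost without WT unconfined replicate 3, which holds the high value of 512 (log2 fold change -0.87, limma adjusted p = 0.323), and also without WKO unconfined replicate 1 (0.0691) or 3 (0.0695) or WT confined replicate 2 (0.155), 3 (0.131) or 6 (0.0799). With only the WT groups in the fit it was lost too (0.0549). The adjusted p ran from 5.70e-05 to 0.323 over all alternatives. Markers of several other cell types were also lower in this comparison. All 10 tested stromal markers were lower in WT confined cells (median log2 fold change -1.72), as were all 10 neutrophil and progenitor markers (median -1.39) and all 4 tested B-lineage markers (median -1.65). Of these limma called 0, 0 and 1, beside 1.16% of all tested genes, with 5, 4 and 1 at an unadjusted p under 0.05, beside 12.2%. The 3 tested endothelial and 2 tested erythroid and megakaryocyte markers were lower too. Of the dendritic cell markers 2 of 3 were lower and 1 was higher, and of the macrophage markers 3 of 8 were lower and 5 higher. The part of these markers in the Abi3 result was not tested. In WKO cells the log2 fold change of Abi3 on confinement was -0.29 (-0.94 to 0.37, limma adjusted p = 0.712). The difference between the genotypes' confinement effects was 1.19 on the log2 scale (SE 0.423, 0.26 to 2.11). Its limma adjusted p was 0.999 and its unadjusted p, from the same fit over all genes, was 0.0161, so the confinement effect was not shown to differ between genotypes.

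Averaged over conditions Abi3 was higher in WKO by 0.97 on the log2 scale (SE 0.212, limma adjusted p = 0.0224), and averaged over genotypes it fell by 0.88 on the log2 scale on confinement (SE 0.212, limma adjusted p = 0.0324). The averaged genotype call was lost without WT unconfined replicate 1, WKO unconfined replicate 1 or 3, or WT confined replicate 2 or 3 (log2 fold change 0.67 to 1.28 and limma adjusted p at most 0.106 over all libraries left out). The averaged confinement call was lost without WT unconfined replicate 3, WKO unconfined replicate 1 or 3, WT confined replicate 2 or 3, or WKO confined replicate 2 (log2 fold change -1.19 to -0.58, limma adjusted p at most 0.116).

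**Figure D3:**
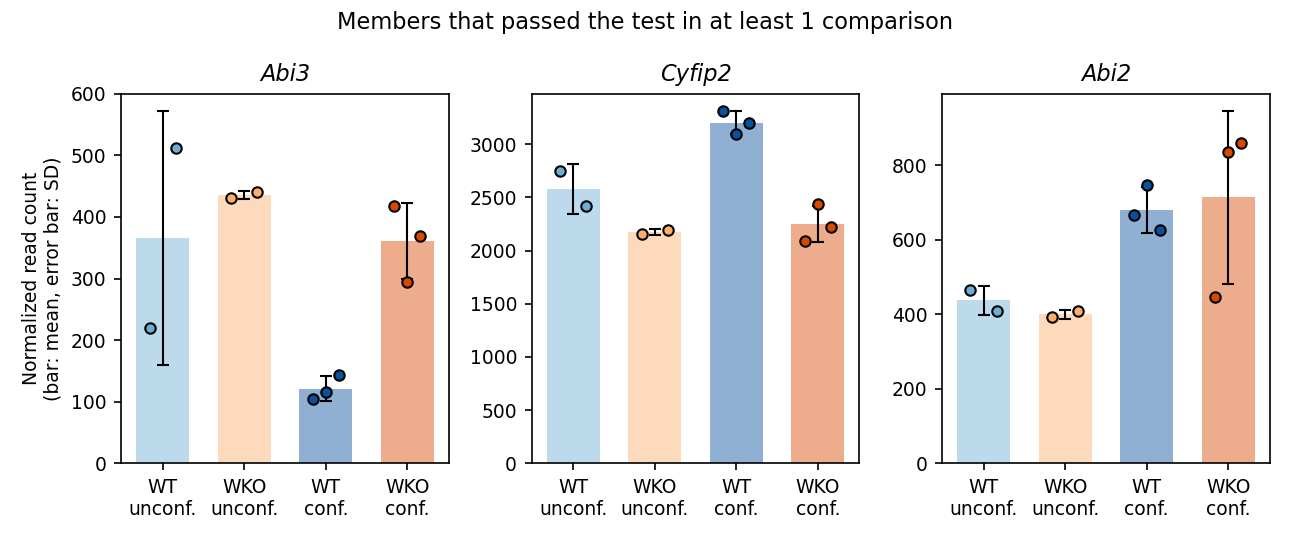
Normalized read count of Abi3, Cyfip2 and Abi2 in the 4 groups (bar: mean; error bar: SD; points: libraries). WT confined libraries are lowest for Abi3 (104 to 143) and highest for Cyfip2 (3099 to 3312), and both confined groups have the higher means for Abi2.

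The exons of Abi3 overlap those of genes on the opposite strand, and the use of strand in counting is not given in the sources used here, so Abi3 counts are uncertain. Of the bases in Abi3 exons, 70.1% (2913) lie in exons of Zfp652, 41.1% (1708) in exons of Phospho1 and 5.63% (234) in exons of Gngt2. Zfp652, which encodes a zinc finger protein, had normalized read counts of 849 ± 1.99 (SD, n = 2) in WT unconfined, 917 ± 75.8 (n = 2) in WKO unconfined, 1402 ± 105 (n = 3) in WT confined and 1369.9 ± 411 (n = 3) in WKO confined cells. Its mean was thus higher in WT confined than in WT unconfined cells, where that of Abi3 was lower (Zfp652 log2 fold change 0.72, limma adjusted p = 0.167, and 0.00558 to 0.506 over all alternatives). Between the genotypes in confined cells its log2 fold change was -0.08 (limma adjusted p = 0.888), and it turned to 0.20 without WKO confined replicate 1.

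Gngt2, which encodes a G protein gamma subunit, followed Abi3. Its normalized read counts were 237 and 482 in WT unconfined, 370.0 and 491 in WKO unconfined, 167, 203 and 235 in WT confined and 429, 523 and 423 in WKO confined libraries. It rose in WKO against WT confined cells (by 1.19 on the log2 scale, SE 0.241, limma adjusted p = 0.0262). For confinement of WT cells its log2 fold change was -0.76 (limma adjusted p = 0.260). The call in confined cells was lost without WT confined replicate 2, 3 or 6 or WKO confined replicate 2, with limma adjusted p-values up to 0.109. It was also lost without a filter and without the mean-variance trend (limma adjusted p up to 0.0934). Over all alternatives the adjusted p ran from 0.000238 to 0.109 in confined cells and from 0.0380 to 0.849 for confinement of WT cells. Across the 10 libraries Abi3 and Gngt2 had a Pearson r of 0.92 in log2 values, and 0.75 after group means were removed. For Abi3 and Zfp652, the gene with the larger overlap, r was -0.54, and -0.33 after group means were removed. These are descriptions over libraries that share 4 groups, and how many reads of 1 gene were counted for the other was not tested. Smaller overlaps were found for Cyfip1 with Nipa2 (11.0% of exon bases) and Gm44616 (1.45%) and for Abi1 with Pdss1 (4.81%).

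CYFIP proteins form the large platform that Rac binds. Cyfip1 (chr7:55841745-55932602, plus strand), the more abundant form per length, had normalized read counts of 8720 and 8126 in WT unconfined, 7594 and 7397 in WKO unconfined, 9248, 8580.1 and 8615 in WT confined and 7899.7, 8414 and 7492 in WKO confined libraries. Within each condition every WKO library was below every WT library. The log2 fold change averaged over conditions was -0.16 (-0.31 to -0.01, unadjusted p = 0.0415 and limma adjusted p = 0.225), so Cyfip1 was not called. For confinement it was 0.07 (-0.08 to 0.23, limma adjusted p = 0.587).

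Cyfip2 (chr11:46193850-46312859, minus strand) had normalized read counts of 2749 and 2417 in WT unconfined, 2153 and 2197 in WKO unconfined, 3312, 3099 and 3198 in WT confined and 2094, 2435 and 2224 in WKO confined libraries. The 3 WT confined libraries were above each of the other 7, which is the reverse of their place for Abi3. Group means were 2583 ± 235 (SD, n = 2), 2175 ± 31.2 (n = 2), 3203 ± 107 (n = 3) and 2251 ± 172 (n = 3) in the same order of groups.

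In confined cells Cyfip2 fell to 0.702 of the WT level in WKO, a log2 fold change of -0.51 (SE 0.0967, 95% confidence interval -0.72 to -0.30, limma adjusted p = 0.0185). The call was lost without WT confined replicate 2 (limma adjusted p = 0.0905), 3 (0.0764) or 6 (0.0667), with the log2 fold change between -0.57 and -0.46 whichever library was left out. It was also lost with only the confined groups in the fit (0.0652), and the adjusted p ran from 0.000296 to 0.0931 over all alternatives. Without WKO confined replicate 5 the log2 fold change was -0.50 (limma adjusted p = 0.0209). The stromal sums of the confined libraries left stayed higher in WKO, so this does not test the part of the cell type markers. In unconfined cells both WKO libraries lay below both WT ones, with a log2 fold change of -0.25 (-0.50 to 0.01, limma adjusted p = 0.557).

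Averaged over conditions Cyfip2 fell by 0.38 on the log2 scale in WKO (SE 0.0765, 95% confidence interval -0.55 to -0.21, limma adjusted p = 0.0160), a call lost without WT unconfined replicate 1 (limma adjusted p = 0.0839) or WKO unconfined replicate 1 (0.0769) or 3 (0.0814). Its log2 fold change on confinement was 0.31 in WT (0.08 to 0.55, limma adjusted p = 0.244) and 0.05 in WKO (-0.19 to 0.28, limma adjusted p = 0.886). For confinement averaged over genotypes it was 0.18 (0.01 to 0.35, limma adjusted p = 0.201). That average was called under 1 of 11 other settings, over which the adjusted p ran from 0.0270 to 0.805. The interaction was -0.27 (-0.60 to 0.07, unadjusted p = 0.108, limma adjusted p = 0.999), so a difference between the genotypes was not shown.

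Shares within a position describe the same libraries without the scaling between them. Cyfip2 made up 37.6% to 38.4% of the CYFIP level per kb in WT confined libraries and 30.8% to 34.6% in the other 7. Abi3 made up 2.44% to 3.23% of the ABI level in WT confined libraries and 5.07% to 11.2% in the other 7. In both positions the 3 WT confined libraries thus lay apart from the rest. The Cyfip2 share in the WKO confined libraries, 30.8% to 33.3%, overlapped the 32.3% to 34.6% of the unconfined ones, with WKO confined replicate 1 below all of them.

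**Figure D4:**
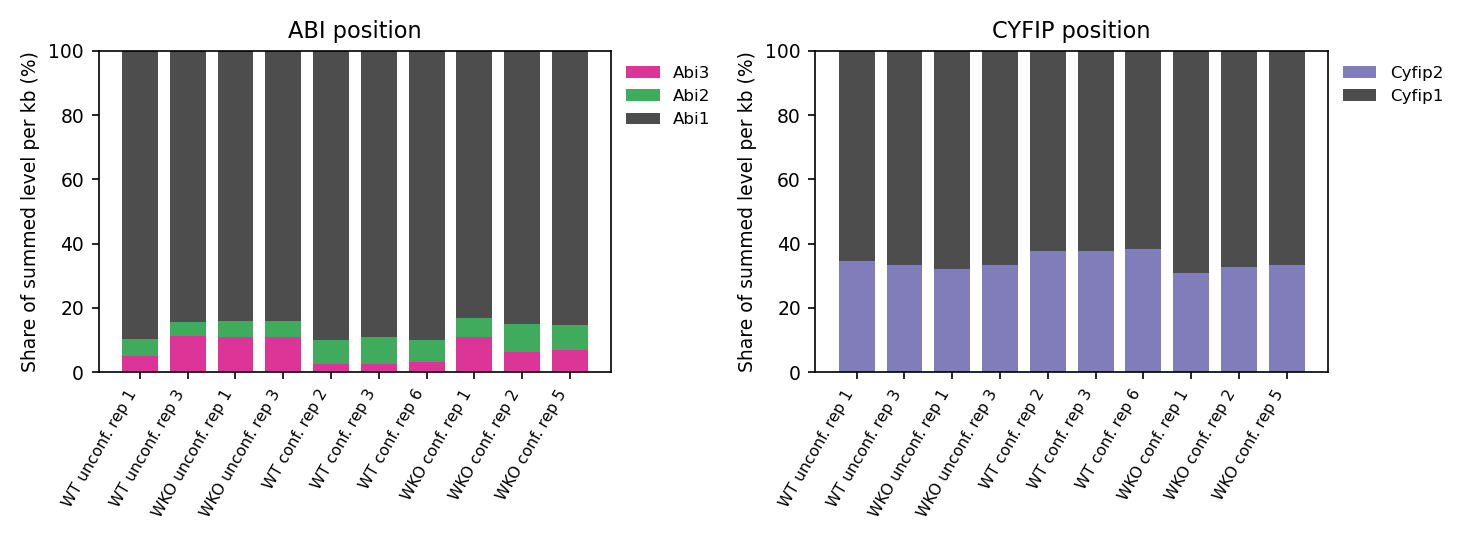
Share (%) of the summed level per kb at the ABI position (left) and the CYFIP position (right) held by each gene, 1 stacked bar per library. WT confined libraries have the smallest Abi3 shares (2.44% to 3.23%) and the largest Cyfip2 shares (37.6% to 38.4%).

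NCKAP proteins are the large partners of CYFIP, and Nckap1l encodes the form of blood cells, HEM1. Nckap1l (chr15:103453794-103498810, plus strand) had the highest normalized read counts of all members, at 16539.8 and 14702 in WT unconfined, 13739 and 15691 in WKO unconfined, 15146, 14689 and 14301 in WT confined and 14530.0, 14770.4 and 15644 in WKO confined libraries. The groups overlapped throughout, and the highest library was 1.20 times the lowest. Its log2 fold change averaged over conditions was -0.03 for WKO against WT (-0.19 to 0.13, limma adjusted p = 0.875) and -0.03 for confinement (-0.19 to 0.14, limma adjusted p = 0.865).

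Nckap1 (chr2:80500512-80581380, minus strand), the form found in most tissues, had normalized read counts of 267 and 198 in WT unconfined, 219 and 252 in WKO unconfined, 254, 216 and 272 in WT confined and 218, 205 and 239.6 in WKO confined libraries. All groups overlapped. The log2 fold change for WKO against WT averaged over conditions was -0.06, with a wide interval of -0.35 to 0.23 (limma adjusted p = 0.854).

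Brk1 (chr6:113604772-113616951, plus strand) encodes the smallest subunit, of 75 codons, and has no paralogue in the list. Its normalized read counts were 1355 and 1773 in WT unconfined, 1535 and 1499 in WKO unconfined, 1493 to 1563 in WT confined and 1719.8, 1329 and 1265 in WKO confined libraries. The groups overlapped, and neither the genotype comparison (averaged log2 fold change -0.07, -0.30 to 0.16, limma adjusted p = 0.781) nor the confinement comparison (-0.05, -0.29 to 0.18, limma adjusted p = 0.821) was called.

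Some members also varied together across the 10 libraries, which share 4 groups and 1 scaling. The Pearson r of log2 values was -0.94 between Abi3 and Cyfip2, -0.83 between Abi3 and Cyfip1, 0.88 between Cyfip1 and Cyfip2 and 0.73 between Abi1 and Abi2. After group means were removed these were -0.83, -0.68, 0.73 and 0.87. They are the strongest of the pairs over the libraries, and others lay near 0, such as Cyfip1 with Brk1 (0.01) and Abi3 with Nckap1l (-0.06). With group means removed, however, these last pairs stood at -0.27 and -0.59. Further pairs were then as strong as those above, among them Wasf2 with Abi1 (0.86), Abi2 with Brk1 (-0.84) and Cyfip2 with Brk1 (-0.81). Among 10216 genes with a mean of at least 50, those most like Abi3, with group means kept, were Fes (0.96), Arrb2 (0.95) and Susd3 (0.95). Those most like Abi2 were Lsm12 (0.98), Rsbn1l (0.98) and Ino80d (0.98), and those most like Cyfip2 were 5031439G07Rik (0.98), Hk1 (0.97) and St14 (0.97).

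Upstream of the complex, 18 genes of Rac and Arf signalling were tested. None was called by limma in the 4 comparisons between pairs of groups, where edgeR called 0. DESeq2 called 0 to 3 of them there, beside 1.47% to 6.25% of all tested genes. At an unadjusted p under 0.05 there were 2 in unconfined and 5 in confined cells (WKO against WT), beside 9.6% and 16.8% of all tested genes, and 2 and 1 on confinement of WT and of WKO cells, beside 12.2% and 14.1%. Averaged over conditions 2 fell in WKO, beside 5.57% of all tested genes called in either direction. Tiam1, an exchange factor that activates Rac, fell by 0.94 on the log2 scale (SE 0.153, limma adjusted p = 0.00553), with means of 339 and 342 in the WT groups and 151 and 212 in the WKO groups. Arf6, a small GTPase of membrane traffic and the cell edge, fell by 0.45 on the log2 scale (SE 0.0885, limma adjusted p = 0.0141), with means of 2965 and 3135 in the WT groups and 2134 and 2345 in the WKO groups. Both were lower in all 5 WKO libraries than in any WT library. Tiam1 stayed called under every alternative (adjusted p at most 0.0410), whereas the Arf6 call was lost without WT unconfined replicate 3 or WKO unconfined replicate 3 (adjusted p at most 0.102). The Arf6 call was also lost without the mean-variance trend of the fit (limma adjusted p = 0.0577).

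Of 19 genes listed as partners or antagonists of WAVE, 16 were tested. Abl2, an Abl-family kinase, rose on confinement in WT (log2 fold change 1.14 with SE 0.21, limma adjusted p = 0.0237) and in WKO (1.09 with SE 0.21, limma adjusted p = 0.0247), from means of 991 to 2193 and of 1081 to 2363. Nhsl2, of the NHS family whose members bind the complex, rose in WKO when conditions were averaged (0.86, SE 0.171, limma adjusted p = 0.0150). The Abl2 call in WT was lost without any 1 of the 5 WT libraries (limma adjusted p up to 0.230) and that in WKO without WKO unconfined replicate 1 or 3, WT confined replicate 2 or WKO confined replicate 2 (up to 0.255). That of Nhsl2 was lost without WT unconfined replicate 1 or WKO unconfined replicate 1 or 3 (up to 0.0762). Without the mean-variance trend of the fit the Abl2 call was also lost in WT (limma adjusted p = 0.131) and in WKO. The WKO call of Abl2 was lost too with only the groups compared and with a replicate block (limma adjusted p up to 0.170 over these settings). The other 14 tested genes of this list were called by limma in none of the comparisons.

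Downstream, all 10 genes of the Arp2/3 list were tested and limma and edgeR called 0 in every comparison. At an unadjusted p under 0.05 there were 0 to 2. In the 4 comparisons between pairs of groups there were 0 or 1, beside 9.6% to 16.8% of all tested genes. DESeq2 called 0 except for 1 on confinement averaged over genotypes, where it called 9.76% of all tested genes. Their median log2 fold change for WKO against WT averaged over conditions was -0.11, with 8 of 10 below 0, beside a median of 0.0033 over all tested genes. Of 9 other promoters of actin nucleation, 7 were tested. Was fell in WKO in both conditions, with a log2 fold change averaged over conditions of -3.61 (SE 0.113, limma adjusted p = 1.00e-08). Jmy, which both nucleates actin and activates Arp2/3, rose on confinement in WT (1.20 on the log2 scale, SE 0.179, limma adjusted p = 0.00726) and in WKO (1.29, SE 0.179, limma adjusted p = 0.00403). The Jmy call in WT was lost without WT unconfined replicate 1 or 3 (limma adjusted p up to 0.0955) and that in WKO without WKO unconfined replicate 3 (0.0590). It was also lost in WT without the mean-variance trend (limma adjusted p = 0.0622) and in WKO with only the groups compared (0.0658). The other 5 tested genes, Wasl among them, were called by limma in none of the comparisons.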

How the data were processed

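The deposited values are a normalized signal for each gene in each library, held in 1 matrix by the authors. The submitters' processing notes name FastQC, Trim Galore, STAR and GRCm38/mm10. Their roles and versions are not given in the sources used here, nor are the counter, the annotation or the strandedness. Of the deposited values, 100% were whole multiples of 1 step per library, and size factors recomputed with DESeq2 1.42.0 equalled these to within 3.33e-15, so read counts were recovered by division. Such scaling leaves gene length and GC content uncorrected.

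Genes with a mean of at least 10 (12455) were tested as log2(value + 1) with limma 3.58.1 in R 4.3.3: 1 mean per group, all 10 libraries, 6 residual degrees of freedom, a mean-variance trend and Benjamini-Hochberg adjustment at 0.05. Averaged contrasts give both conditions or genotypes equal weight. The pseudocount understates changes of low genes. Counts of members were repeated with edgeR 4.0.16 and DESeq2 on the recovered reads, and the code was tested on simulated data. In the simulated averaged genotype comparison, limma recovered 27 of 50 genes changed 1.5-fold and 43 of 50 changed 2-fold. Exon lengths and overlaps, coordinates and coding sequences came from GENCODE M21 (GRCm38), and shared sequence was searched with blastn 2.17.0.

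All 10 members are named. A gene of a context list is named if called, at most 3 per list and comparison by smallest p, and Was and Wasf3 always. For the 3 members with the widest range of group means, the 3 most alike genes are named. Genes whose exons overlap a member were chosen after the overlap was found. The members and lists were chosen with earlier results of these data known. The other settings tried were pseudocounts of 0.5 and 5, no filter, a mean of at least 50, trimmed mean of M values (TMM) and upper-quartile scaling, no trend, array weights, only the groups compared, a replicate block and leaving out each library. Library totals and the 3-read floor are given in the report, and no library was left out.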

Additional observations from a re-analysis of the deposited data

How the results depend on the processing

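Of 901 comparisons of a tracked fold change (members, and the other genes printed with an adjusted p) with another setting, 793 kept their direction and side of the threshold, 78 lost a call, 12 gained one and 18 changed sign. Members called in confined cells (WKO against WT) went from 2 to 0 without the trend and to 1, Abi3, with only the groups compared. For confinement of WT cells the count went from 1 to 0 without a filter and without the trend, and with only the groups compared it stayed at 1 but was Abi2 in place of Abi3. For confinement of WKO cells it went from 0 to 1, Abi2, with DESeq2 and with array weights, which called 3.89% and 13.9% of all tested genes. The averaged genotype comparison went from 2 to 0 without the trend, and the averaged confinement comparison from 2 to 0 without a filter and without the trend. Leaving out 1 library gave 0 to 2 called members in each of these 5 comparisons. The unconfined genotype comparison and the interaction stayed at 0 under every setting. The mean Cyfip1 share of the CYFIP level was 65.6% over all exons and 76.8% over the longest transcript. Without a filter more genes are adjusted over; otherwise the cause of these changes was not tested.

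Deviations from group means correlated at -0.11 to 0.076 in 7 like-numbered pairs and -0.20 to 0.24 in others. In groups of 2 they are mirrored, so pairing was not decided. With the replicate number as a block, called members went from 2 to 1 (Abi3) in confined cells and from 2 to 0 for averaged confinement. Under the block the log2 fold change turned to -0.034 for Cyfip2 (confinement of WKO cells), to -0.050 for Abi1 and to 0.093 for Brk1 (both averaged confinement).

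Other changes of sign were in values that were not called. Upper-quartile scaling, which moved the median of all tested genes to -0.10 for averaged confinement and to -0.12 for confinement of WKO cells, gave -0.056 for Cyfip2 in WKO cells and -0.015 for Cyfip1 in the average. It also moved the share of higher genes among all called on averaged confinement from 66.6% to 46.8%, in WT from 77.1% to 63.6% and in WKO from 86.4% to 75.4%. Array weights gave 0.045 for Abi2 in the averaged genotype comparison and 0.14 for Zfp652 in confined cells. Leaving out 1 library, the averaged genotype log2 fold changes ran from -0.14 to 0.097 (Abi2), -0.17 to 0.045 (Nckap1), -0.078 to 0.017 (Nckap1l) and -0.17 to 0.027 (Brk1). For averaged confinement they ran from -0.076 to 0.020 (Nckap1l) and -0.15 to 0.046 (Brk1), for Cyfip2 on confinement of WKO cells from -0.011 to 0.098, for Abi3 in unconfined cells from -0.23 to 0.99, and for Zfp652 in confined cells from -0.23 to 0.20. With 2 or 3 libraries a group, small differences in the lower members (Nckap1, Abi2, Abi3) were not detectable.

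Counts over all tested genes depended strongly on the setting. With every library, the number called went from 18 to between 4 (no trend) and 245 (block) in unconfined cells, from 322 to between 53 (no trend) and 1948 (array weights) in confined cells, from 144 to between 20 (no trend) and 455 (only the groups compared) for confinement of WT cells and from 214 to between 33 (only the groups compared) and 1735 (array weights) for WKO cells. It went from 694 to between 360 (no trend) and 1804 (array weights) for averaged genotype, from 773 to between 383 (block) and 2220 (array weights) for averaged confinement, and stayed at 0 for the interaction. Leaving out 1 library gave 4 (without WT unconfined replicate 3) to 141 (without WKO confined replicate 5) in unconfined cells, 58 (without WT confined replicate 2) to 701 (without WKO confined replicate 1) in confined cells, 22 (without WT unconfined replicate 1) to 397 (without WKO confined replicate 5) for confinement of WT cells and 43 (without WKO unconfined replicate 1) to 1043 (without WKO confined replicate 1) for WKO cells. It gave 169 (without WKO unconfined replicate 3) to 1115 for averaged genotype and 288 (without WKO unconfined replicate 1) to 1807 for averaged confinement, both highest without WKO confined replicate 1.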
